A study of Mus musculus with 11 samples.

Results

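The ADAM and ADAMTS family is a group of metalloproteinase genes and their relatives, and its mRNAs were measured in the tibialis anterior (TA), a muscle of the lower leg, of 11 mice. The members were every gene whose symbol reads Adam, Adamts or Adamtsl followed by a number, with or without a closing letter. Of 21759 gene symbols on the array, 56 met this rule, namely 32 Adam, 19 Adamts and 5 Adamtsl genes. Each gene was read at 1 probe set, its brightest by mean log2 signal, and 28 of the 56 reached a group mean of 30 on the linear scale in 1 or more groups of mice. Only these 28 were tested, among 14494 probe sets in all.

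ADAM proteins are anchored in the cell membrane, and those with an intact zinc site cut the outer part off other membrane proteins, a step called ectodomain shedding. ADAMTS proteins are secreted and cut components of the extracellular matrix, such as proteoglycans and procollagens, while ADAMTS-like proteins share their matrix-binding domains but have no protease domain. Several ADAM proteins are known from muscle, where meltrins take part in the fusion of myoblasts, and many others are known from the testis. The members' own annotation gives metalloendopeptidase activity for 40 of the 56, and for 20 of the 28 tested.

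RNA came from male mice whose strain the labels give as C57/B10 throughout, while the study's methods name C57/Bl10 for the wild type and C57/Bl10ScSn-Dmd mdx/J for *mdx*. There were 3 C57 wild-type mice (C1 to C3), 4 *mdx* mice (M1 to M4), which lack dystrophin because of a mutation in Dmd, and 4 *mdx* mice treated with Pip6e-PMO (T1 to T4). Pip6e-PMO is an antisense oligonucleotide joined to a cell-penetrating peptide, which makes the Dmd transcript skip the exon that carries the mutation. The treated mice had received 1 dose of 12.5 mg/kg, given into a tail vein when they were 12 weeks old, and all mice were 14 weeks old when the muscle was taken, so a single muscle, dose and time after injection are represented. Each mouse was hybridized to its own Affymetrix Mouse Gene ST array, and the RNA came from sections through the middle of the muscle, which hold every cell type present there. In such bulk samples, fewer cells of a type and less RNA per cell cannot be told apart.

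The 10 skeletal muscle fibre markers had summed linear signals of 69877 to 72169 in the C57 mice, of 71382 to 73038 in the *mdx* mice and of 68830 to 72983 in the treated ones, so the genes that define skeletal muscle were at high levels in every mouse. Dmd mRNA was at 5.77 to 5.87 (log2) in C57 mice, at 4.60 to 5.82 in *mdx* mice and at 5.51 to 6.34 with treatment. The mutation leaves the transcript in place, so this signal is no check of the labels. Mouse T2 stood apart from its group in the spread of its deviations from the group mean over the tested probe sets. This spread, a median absolute deviation scaled to compare with an SD, was 0.285 log2 units, against 0.115 to 0.193 in the other 10 mice. Member calls that changed without T2 are therefore named below. Most other values include T2 and are not given without it. The paper reports that its treated sample T2 had the lowest efficacy by exon-skipping RT-qPCR and by dystrophin in LC-MS/MS. Its western blot values did not correlate significantly with either. By mRNA, the paper found T2 the least restored and closer to *mdx* than the other treated samples. The part of this in the results below was not tested. All differences below are between mean log2 signals, and "called" means a Benjamini-Hochberg adjusted p under 0.05 in limma's two-sided test over all 14494 probe sets. *Mdx* and treated mice were each compared with the same 3 C57 mice, and treated mice with the same 4 *mdx* mice, so the comparisons share samples and their values are set side by side only.

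To see how the family differs in dystrophic muscle, *mdx* mice were compared with C57 mice. Of the 28 members tested, 9 rose in *mdx* (Adam8, Adam10, Adam19, Adamts4, Adamts5, Adamts7, Adamts12, Adamts15 and Adamts20), 1 fell (Adamtsl4) and 18 were not called. Over all probe sets tested, 7.06% were higher and 4.96% lower by the same rule. The median difference over the 28 members was 0.41, against -0.01 over the 11842 genes tested. Of the 28, 20 were positive, and the share of all genes that were positive was not computed. All 4 *mdx* mice lay above all 3 C57 mice for 14 members and below them for 1, where 13.1% of all probe sets were separated upwards and 11.3% downwards. A member can pass the signal minimum only because it is high in some mice: 23 of the 28 passed it in all 3 groups, and 6 of these 23 rose and 1 fell. The median and the numbers positive and separated take in the other 5 as well, and were not recomputed without them. The methods' t-test, adjusted in the same way, called 5 members higher and none lower, where at an unadjusted p under 0.05 it gave 13 higher and 1 lower.

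Leaving out 1 mouse at a time gave 5 to 11 members higher in *mdx*. The 5 that stayed called in all 11 of these fits were Adam8, Adam19, Adamts4, Adamts5 and Adamts20, and 5 was the whole count without C2, M2 or M3. Without T2, 11 members were called higher, since T2 enters the shared estimate of the spread, and the added members were Adamts2 and Adamts14. The call for Adamtsl4 was lost without C2, C3, M1, M2 or M3, and Adam33 was called lower as well without M4.

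**Figure D1:**
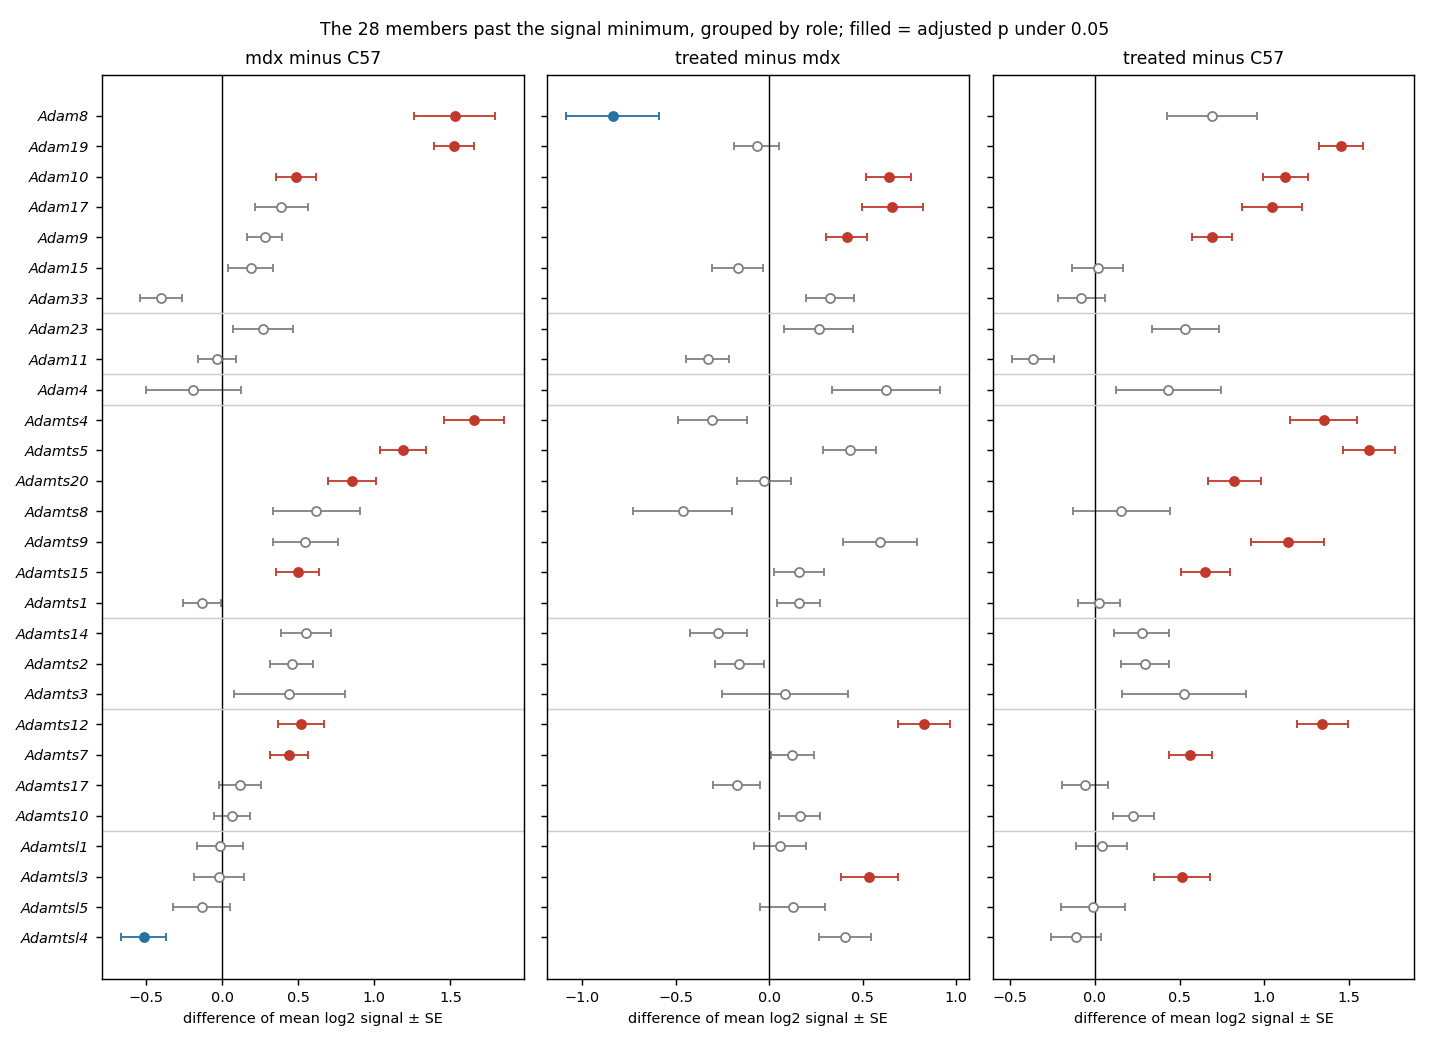
Differences of mean log2 signal with their standard errors for the 28 members past the signal minimum, grouped by role from the somatic ADAM proteases at the top to the ADAMTS-like genes at the bottom, for *mdx* minus C57 (left), treated minus *mdx* (middle) and, at the right, treated minus C57 mice. Filled points have an adjusted p under 0.05, in red where higher and in blue where lower, and the horizontal lines separate the roles; Adam19, Adamts4 and Adamts5 lie far to the right in both comparisons with C57 and near 0 or within 0.43 of it between treated and *mdx* mice.

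To see whether exon skipping altered the same mRNAs, treated mice were compared with *mdx* mice. Among the 28 members, 5 rose in treated mice (Adam9, Adam10, Adam17, Adamts12 and Adamtsl3), 1 fell (Adam8) and 22 were not called, where 7.26% of all probe sets were higher and 3.88% lower. Among the 23 members past the minimum in all 3 groups, 5 rose and 0 fell. The median difference was 0.14 for the 28 members and 0.03 for all genes tested. All treated mice lay above all *mdx* mice for 5 members, namely Adam9, Adam10, Adam17, Adamts5 and Adamts12, with 9.29% of all probe sets separated in this way. The methods' t-test called none of the members in this comparison, with 9 higher and 2 lower at an unadjusted p under 0.05.

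Only Adam10 and Adamts12 stayed called in all 11 fits with 1 mouse left out, and the number higher was 2 without M3, M4, T3 or T4 and 3 without T1. Without T2 it was 7, adding Adam4 and Adamts9, and 2 members were lower, Adam8 and Adamts4. Leaving out any mouse other than T2 left no member lower.

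Between treated and C57 mice, 12 members were higher (Adam9, Adam10, Adam17, Adam19, Adamts4, Adamts5, Adamts7, Adamts9, Adamts12, Adamts15, Adamts20 and Adamtsl3), where 15.6% of all probe sets were higher. The number lower was 0 in limma, where 8.96% of all probe sets were lower. Among the 23 members past the minimum in all 3 groups, 10 were higher. Adamts4 and Adamts20 had C57 means under the minimum, so they were tested only because they were high in other groups. One member, Adam11, was lower at an unadjusted p under 0.05 in limma, and 0 were in the methods' t-test. The median difference was 0.52 for the 28 members, Adamts4 and Adamts20 included, and 0.03 for all genes. In the fits with 1 mouse left out, 11 of the 12 stayed called, all but Adamtsl3, and Adam11 was called lower without T1 with an adjusted p of 0.0354.

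**Figure D2:**
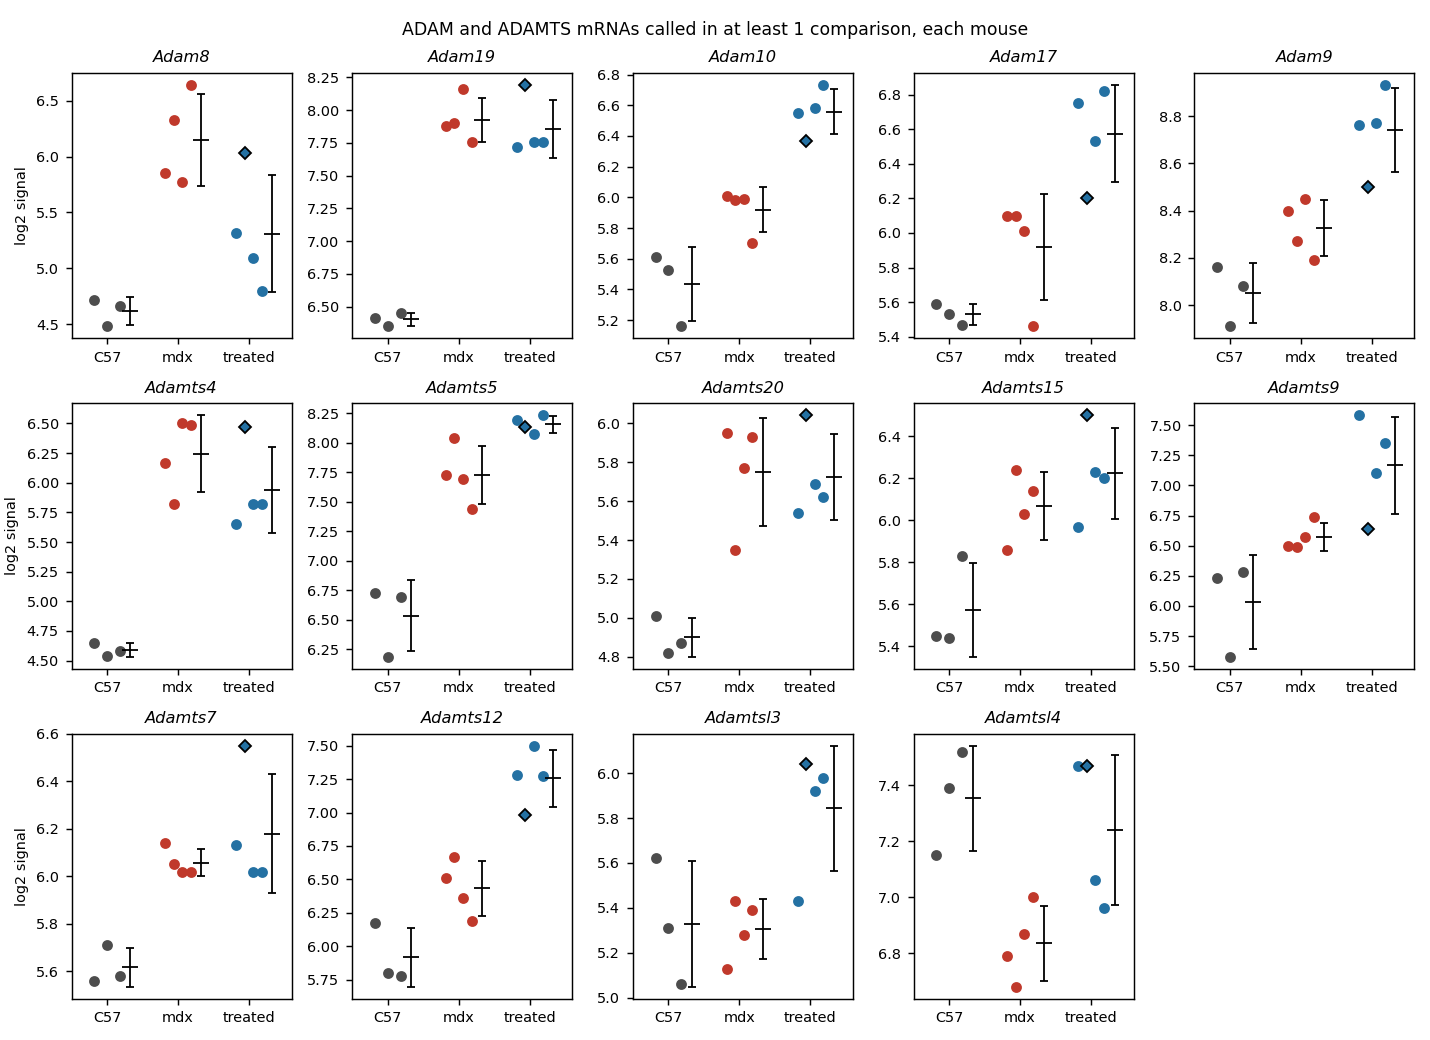
Log2 signal in each mouse for the 14 members called in at least 1 of the 3 comparisons, with the group mean and SD (n = 3 C57, 4 *mdx* and 4 treated mice) as a bar beside the points and mouse T2 drawn as a diamond. Adam9, Adam10, Adamts5 and Adamts12 step upwards from C57 to *mdx* to treated mice with no overlap between neighbouring groups. Of all probe sets tested, 13.1% were separated upwards at the first step and 9.29% at the second, and the share for both was not computed. Adam8 is highest in *mdx* mice, and T2 is the treated mouse nearest to them. Each panel has its own scale.

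Among the somatic ADAM genes with a protease site, 7 of 9 were tested, and 3 rose in *mdx* mice, where 7.06% of all probe sets were higher. The 3 include Adam8, whose C57 mean was under the minimum, so it was tested only because it was high in other groups. Adam19, or meltrin beta, a shedding enzyme of developing muscle and heart, had log2 signals of 6.41, 6.35 and 6.45 in C57 mice, 7.88, 7.90, 8.16 and 7.76 in *mdx* mice and 7.72, 8.19, 7.76 and 7.76 in treated mice. Every *mdx* mouse, treated or not, was well above the C57 mice, and treated and *mdx* mice overlapped. The rise in *mdx* was 2.87-fold (1.52 ± 0.13 SE, adjusted p = 2.54e-05), and treated minus *mdx* was -0.07 ± 0.12 (adjusted p = 0.74). Treated mice remained 2.74-fold above C57 mice (1.45 ± 0.13, adjusted p = 5.86e-05).

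Adam8, a shedding enzyme mainly known from leukocytes, had signals of 4.72, 4.48 and 4.66 in C57 mice, 5.85, 6.33, 5.77 and 6.64 in *mdx* mice and 5.32, 6.03, 5.09 and 4.80 in treated mice. The *mdx* mice were all above the C57 mice, and 3 of the 4 treated mice lay between the groups while T2 was within the *mdx* range. The rise in *mdx* was 1.53 ± 0.27 (adjusted p = 0.00321). In treated mice Adam8 fell by 0.84 ± 0.25 against *mdx* mice (adjusted p = 0.0489), a level 0.69 ± 0.27 above C57 mice (adjusted p = 0.0767). The fall was larger without T2, 1.08 with an adjusted p of 0.00498, and it was not called without any 1 of the other 10 mice (adjusted p of 0.0544 to 0.133). The mean C57 signal of 24.7 on the linear scale lay under the minimum of 30 and under the median of every array (27.5 to 28.6), so no fold is given.

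Of 10 macrophage markers listed, 7 were tested, and 6 of these were, like Adam8, higher in *mdx*. Cd163 and Msr1 were under the signal minimum. Cd163 was at 4.70 to 4.94 (log2) in C57 mice and lower, at 4.47 to 4.60, in *mdx* mice. Msr1 was at 3.40 to 3.55 in C57 mice and higher, at 3.69 to 3.85, in *mdx* mice. The summed linear signal of the macrophage list was 958.5 to 1381 in C57 mice, 2587 to 4038 in *mdx* mice and 2144 to 2714.5 after treatment. In treated against *mdx* mice, Cd68 and Ctss were lower and Mrc1, a marker of alternatively activated macrophages, was higher. The other tested macrophage markers were not called in that comparison. The 9 tested markers of regenerating fibres and myoblasts also moved, with 8 higher in *mdx* and 2 lower in treated mice, and summed signals of 3614 to 4883, 9435 to 11578 and 5994 to 9734. T and B lymphocyte markers were all under the minimum. The part of these cells in the changes of Adam8, Adam19 and the other members was not tested.

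Adam10, the shedding enzyme that cuts Notch receptors and many adhesion molecules, had signals of 5.61, 5.53 and 5.16 in C57 mice, 6.01, 5.98, 5.99 and 5.70 in *mdx* mice and 6.55, 6.37, 6.58 and 6.73 in treated mice. The 3 groups did not overlap, and the treated mice were the highest. Adam10 rose by 0.49 ± 0.13 in *mdx* (1.40-fold, adjusted p = 0.0315) and by a further 0.64 ± 0.12 in treated mice (1.56-fold, adjusted p = 0.0143), 2.18-fold over C57 (adjusted p = 0.00025). The first of these calls was lost without C2, C3, M1, M2 or M3 (adjusted p of 0.066 to 0.135), while the second held in every such fit, at an adjusted p of at most 0.05.

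Adam17, the enzyme that releases tumour necrosis factor and ligands of the epidermal growth factor receptor, had signals of 5.59, 5.53 and 5.47 in C57 mice, 6.10, 6.10, 6.01 and 5.46 in *mdx* mice and 6.75, 6.20, 6.53 and 6.82 in treated mice. Mouse M4 lay at the C57 level, and all treated mice were above all *mdx* mice. Adam17 was not called in *mdx* (0.39 ± 0.18, adjusted p = 0.193), but without M4 the difference was 0.54 and was called (adjusted p = 0.0401). It rose 1.58-fold in treated against *mdx* mice (0.66 ± 0.16, adjusted p = 0.0291) and was 2.06-fold above C57 (adjusted p = 0.00209). The treated rise was not called without M3, M4, T1, T3 or T4 (adjusted p of 0.0586 to 0.0869).

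Adam9, or meltrin gamma, a widely expressed shedding enzyme, had signals of 8.16, 7.91 and 8.08 in C57 mice, 8.40, 8.27, 8.45 and 8.19 in *mdx* mice and 8.76, 8.50, 8.77 and 8.93 in treated mice. The order of the groups was that of Adam10, again with no overlap, over a smaller span. The difference between *mdx* and C57 mice was 0.28 ± 0.12 (adjusted p = 0.161), the rise in treated against *mdx* mice 0.41 ± 0.11 (adjusted p = 0.0348) and that against C57 mice 0.69 ± 0.12 (adjusted p = 0.00218). The middle value lost its call without M2, M3, M4, T1, T3 or T4 (adjusted p of 0.0575 to 0.103). For Adam9, Adam10 and Adam17 alike, T2 had the lowest signal among the treated mice.

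Adam15 was not called, with differences of 0.19 ± 0.15, -0.17 ± 0.14 and 0.02 ± 0.15 for *mdx* against C57, treated against *mdx* and treated against C57 mice (adjusted p of 0.504, 0.424 and 0.949). Adam33, known from mesenchymal cells, had differences of -0.41 ± 0.14, 0.33 ± 0.13 and -0.08 ± 0.14 (adjusted p of 0.0795, 0.108 and 0.692), and the first was called without M4 (adjusted p = 0.0388) and with array weights (adjusted p = 0.0144). Adam12, or meltrin alpha, an enzyme of fusing myoblasts, had linear signals of 14.6 to 33.1 and group means under 30, so it was not tested. In a fit without the signal minimum its difference between *mdx* and C57 was 0.61 (adjusted p = 0.0238), the only call among the 28 members under the minimum. Adam28 had linear signals of 8.3 to 9.6.

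The ADAM proteins that lack an active zinc site, ADAM11, ADAM22 and ADAM23, serve as receptors for the secreted LGI proteins at nerve cell surfaces. Adam11 was just inside the minimum, with a mean linear signal of 30.3 in C57 mice, and had differences of -0.03 ± 0.13, -0.33 ± 0.12 and -0.36 ± 0.13 (adjusted p of 0.916, 0.0809 and 0.0526). Adam23 had 0.27 ± 0.20, 0.27 ± 0.18 and 0.53 ± 0.20 (adjusted p of 0.458, 0.347 and 0.0676), and its difference between treated and C57 mice was called without C1 or T1 (adjusted p of 0.0377 and 0.0247). Adam22 had linear signals of 14.4 to 24.4. Of the 4 LGI ligands, 2 were tested and none was called by limma in any comparison, with none at an unadjusted p under 0.05 in limma or in the methods' t-test.

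The proteoglycanase branch of the ADAMTS genes, whose products cut aggrecan and versican, was tested in full. Of its 7 members, 4 rose in *mdx* mice and 5 were higher in treated than in C57 mice. The shares of all probe sets higher in these comparisons were 7.06% and 15.6%. Both counts include Adamts4 and Adamts20, whose C57 means were under the minimum. These 2 were tested only because they were high in other groups. Between treated and *mdx* mice 0 of the 7 were called in limma, or in the methods' t-test after adjustment. At an unadjusted p under 0.05, 2 were higher in limma and in the methods' t-test alike.

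Adamts4, or aggrecanase-1, had signals of 4.65, 4.54 and 4.58 in C57 mice, 6.17, 5.82, 6.50 and 6.49 in *mdx* mice and 5.65, 6.47, 5.82 and 5.82 in treated mice. All *mdx* and treated mice were far above the C57 mice, and T2 was the one treated mouse near the top of the *mdx* range. The rise in *mdx* was 1.66 ± 0.20 (adjusted p = 0.000322). No fold is given, since the mean linear signal of 24.1 in C57 mice lay below the minimum of 30 and below the median of every array (27.5 to 28.6). Treated minus *mdx* was -0.31 ± 0.18 (adjusted p = 0.281), and without T2 it was -0.48 and called (adjusted p = 0.0337). Treated minus C57 was 1.35 ± 0.20 (adjusted p = 0.000962).

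Adamts5, or aggrecanase-2, had signals of 6.73, 6.19 and 6.69 in C57 mice, 7.73, 8.04, 7.69 and 7.44 in *mdx* mice and 8.19, 8.13, 8.07 and 8.23 in treated mice. The treated mice formed the tightest group and lay just above the highest *mdx* mouse. Adamts5 rose 2.28-fold in *mdx* (1.19 ± 0.15, adjusted p = 0.000506) and was 3.07-fold above C57 in treated mice (1.62 ± 0.15, adjusted p = 8.56e-05), the largest difference of any member in that comparison. The difference of 0.43 ± 0.14 between treated and *mdx* mice was not called (adjusted p = 0.0684), but it was without M2 (adjusted p = 0.0451) and with array weights (adjusted p = 0.0476).

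Adamts20, a versican-cutting protease known from pigment cell development, had signals of 5.01, 4.82 and 4.87 in C57 mice, 5.95, 5.35, 5.77 and 5.93 in *mdx* mice and 5.54, 6.04, 5.69 and 5.62 in treated mice. *Mdx* and treated mice overlapped, above all C57 mice. The rise was 1.80-fold in *mdx* (0.85 ± 0.16, adjusted p = 0.00442) and 1.77-fold in treated mice (0.82 ± 0.16, adjusted p = 0.00395), with a mean linear C57 signal of 29.9, just under the minimum.

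Adamts15, another aggrecanase, had signals of 5.45, 5.44 and 5.83 in C57 mice, 5.86, 6.24, 6.03 and 6.14 in *mdx* mice and 5.97, 6.50, 6.23 and 6.20 in treated mice. The lowest *mdx* mouse lay just above the highest C57 mouse, and *mdx* and treated mice overlapped. Adamts15 rose by 0.49 ± 0.14 in *mdx* (adjusted p = 0.0447) and by 0.65 ± 0.14 in treated against C57 mice (adjusted p = 0.00827). The first call was lost without C1, C2, M2, M3, M4, T3 or T4 (adjusted p of 0.06 to 0.175).

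Adamts9, a versicanase of vessels and developing tissues, had signals of 6.23, 5.58 and 6.28 in C57 mice, 6.50, 6.49, 6.57 and 6.74 in *mdx* mice and 7.58, 6.64, 7.10 and 7.35 in treated mice. T1, T3 and T4 lay above every *mdx* mouse, and T2 within their range. The difference between treated and *mdx* mice was 0.59 ± 0.20 (adjusted p = 0.0698), and without T2 it was 0.77 and called (adjusted p = 0.00947). Against C57 mice, treated mice were 2.20-fold higher (1.14 ± 0.21, adjusted p = 0.00362), and *mdx* mice differed by 0.55 ± 0.21 (adjusted p = 0.13).

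Adamts9 was also read by 5 further probe sets, all past the minimum. The 6 differences between treated and *mdx* mice ran from 0.53 to 0.68, and 4 of the 6 were called, among them none at the probe set with the highest signal. All 6 were higher in treated than in C57 mice, by 0.42 to 1.36. Between *mdx* and C57 mice the same 6 ran from -0.11 to 0.82, and 1 was called, so the probe sets of Adamts9 disagreed on the dystrophic difference and not on the treated one.

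**Figure D3:**
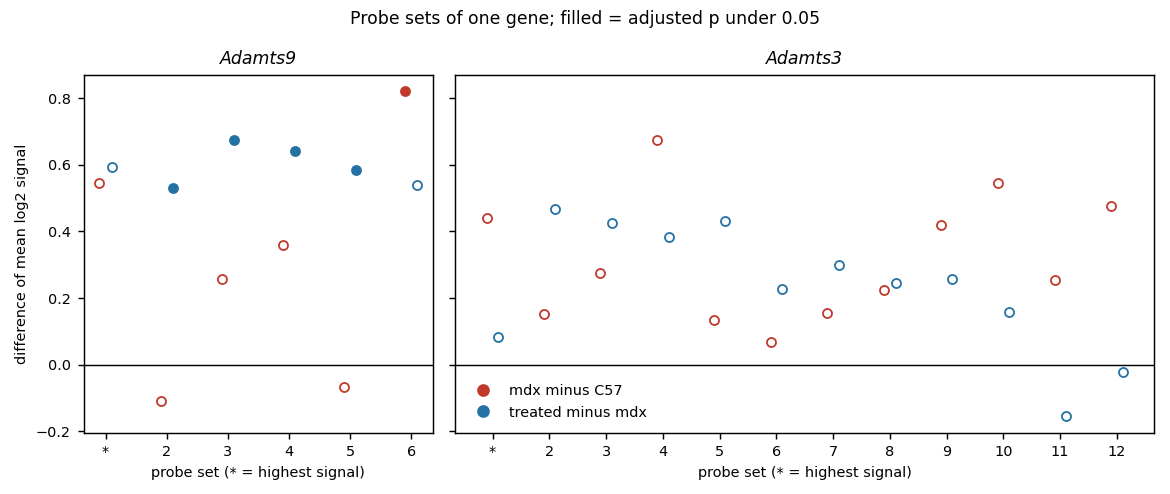
Differences of mean log2 signal for each tested probe set of Adamts9 (6 probe sets) and Adamts3 (12 probe sets), with *mdx* minus C57 in red and treated minus *mdx* in blue, filled where the adjusted p is under 0.05. The blue points of Adamts9 sit together between 0.53 and 0.68 while its red points spread from -0.11 to 0.82, and no point of Adamts3 is filled.

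Adamts8 and Adamts1, both also described as inhibitors of vessel growth, were not called. Adamts8 had signals of 6.17 to 6.28 in C57 mice, 6.47 to 7.79 in *mdx* mice and 5.88 to 6.60 in treated mice, with M3 far above the rest. Its difference between *mdx* and C57 mice was 0.62 ± 0.29 (adjusted p = 0.203) and 0.30 without M3. The other probe set assigned to Adamts8 lies on the opposite strand in the deposited annotation and is not used as a reading of its mRNA. Adamts1 differed by -0.13 ± 0.12, 0.16 ± 0.12 and 0.03 ± 0.12 (adjusted p of 0.583, 0.375 and 0.896). By the order of protein-coding genes, Adamts1 lies next to Adamts5 on chromosome 16 and Adamts8 next to Adamts15 on chromosome 9. In each pair a member called higher in *mdx* has a neighbour that was not called. Adamts8 and Adamts15 did not differ in direction. The uncalled difference of Adamts8, 0.62 ± 0.29, was larger than that of Adamts15, 0.49 ± 0.14, and all *mdx* mice lay above all C57 mice for both.

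The procollagen N-propeptidases, which trim fibrillar procollagens before they form fibrils, were all tested. None of Adamts2, Adamts3 and Adamts14 was called by limma, although 2 of the 3 were higher in *mdx* at an unadjusted p under 0.05 in limma and in the methods' t-test. Adamts2 had signals of 8.51 to 8.59 in C57 mice, 8.82 to 9.17 in *mdx* mice and 8.64 to 9.23 in treated mice, with every *mdx* and treated mouse above every C57 mouse. Its difference in *mdx* was 0.46 ± 0.14 (adjusted p = 0.0539), and it was called without M1, T1 or T2 (adjusted p of 0.0104 to 0.047).

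Adamts14 had signals of 4.86 to 5.03 in C57 mice, 5.19 to 5.76 in *mdx* mice and 4.95 to 5.54 in treated mice, with a difference in *mdx* of 0.55 ± 0.17 (adjusted p = 0.0505) that was called without M1, T2 or T4 (adjusted p of 0.0272 to 0.0462). Adamts3 spread over 4.81 to 6.48 in the 3 C57 mice alone, and its difference in *mdx* was 0.44 ± 0.37 (adjusted p = 0.521). Of its 16 probe sets 12 were tested, all positive in *mdx* minus C57 mice at 0.07 to 0.68 and none called, and 1 was called in treated minus C57 mice. In treated minus *mdx* mice, the 3 genes had differences of -0.16, 0.08 and -0.27 for Adamts2, Adamts3 and Adamts14.

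Among the other ADAMTS genes, 4 of 9 were tested and 2 rose in *mdx*, where 7.06% of all probe sets were higher. The 2 were Adamts12 and Adamts7, a pair of related proteases that cut cartilage oligomeric matrix protein. Adamts12 had signals of 6.17, 5.80 and 5.78 in C57 mice, 6.51, 6.67, 6.36 and 6.19 in *mdx* mice and 7.28, 6.98, 7.50 and 7.27 in treated mice. The groups did not overlap, although M4 lay only just above C1. Adamts12 rose by 0.52 ± 0.15 in *mdx* (1.43-fold, adjusted p = 0.0449) and by 0.83 ± 0.14 in treated against *mdx* mice (1.77-fold, adjusted p = 0.0095), the largest rise of any member in the latter comparison.

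In treated mice Adamts12 was 2.53-fold above C57 (1.34 ± 0.15, adjusted p = 0.0002). Its call in *mdx* was lost without C2, C3, M1, M2, M3, T1 or T4 (adjusted p of 0.0549 to 0.168), and that in treated against *mdx* mice in none of the 11 fits with 1 mouse left out, where the adjusted p was at most 0.0326. Adam10 and Adamts12 were thus the members called higher at both steps, *mdx* over C57 and treated over *mdx* mice. Of all probe sets, 7.06% and 7.26% were called higher at the single steps, and the share called at both was not computed.

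Adamts7 had signals of 5.56, 5.71 and 5.58 in C57 mice, 6.14, 6.05, 6.02 and 6.02 in *mdx* mice and 6.13, 6.55, 6.02 and 6.02 in treated mice. All *mdx* and treated mice were above all C57 mice, and T2 was the highest of them. The rise was 0.44 ± 0.13 in *mdx* (adjusted p = 0.0398) and 0.56 ± 0.13 in treated against C57 mice (adjusted p = 0.00848), and the former was lost without any 1 of the 7 C57 and *mdx* mice (adjusted p of 0.0657 to 0.118). Adamts10 and Adamts17, which act on fibrillin microfibrils, were not called, with differences in *mdx* of 0.07 ± 0.12 and 0.12 ± 0.14. Of the 5 probe sets of Adamts17 only 2 were tested, each of 25 probes. Its probe sets with more probes, 33 and 27, had group means of 16.8 to 23.3 on the linear scale, under the minimum. Adamts6, Adamts13, Adamts16, Adamts18 and Adamts19 had linear signals of 7.9 to 21.9 in all mice and were not tested.

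Fibroblast and matrix-producing cells are a known source of ADAMTS mRNAs. Of 10 markers listed for fibroblasts and fibro-adipogenic progenitors, all were tested, 4 were higher in *mdx* mice (Lum, Col3a1, Postn and Mfap5) and 1 lower in treated against *mdx* mice (Ly6a). Their summed linear signal was 7899 to 9608 in C57 mice, 10801 to 12113 in *mdx* mice and 8619 to 14277.5 after treatment, highest in T2. Of 8 endothelial markers, 1 was higher in *mdx* (Cldn5) and 2 were higher in treated than in *mdx* mice (Pecam1 and Tek), with sums of 2782 to 3055, 3107 to 3764 and 3456 to 4269. Among treated mice the sum over the endothelial list was lowest in T2, which was the lowest treated mouse, ties included, for 7 of the 28 tested members and the highest for 15. The part of these cells in the changes of the ADAMTS genes was not tested.

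Of the 5 ADAMTS-like genes, 4 were tested. In *mdx* mice 1 of them fell and 0 rose in limma, with 0 higher at an unadjusted p under 0.05 in limma and in the methods' t-test, and all 4 differences were negative, from -0.52 to -0.02. Adamtsl4, a fibrillin-binding glycoprotein, had signals of 7.15, 7.39 and 7.52 in C57 mice, 6.79, 6.68, 6.87 and 7.00 in *mdx* mice and 7.47, 7.47, 7.06 and 6.96 in treated mice. All *mdx* mice were below all C57 mice, while the treated mice spread over both ranges. Adamtsl4 fell by 0.52 ± 0.15 in *mdx* (1.43-fold lower, adjusted p = 0.0405), which was no longer called once C2, C3, M1, M2 or M3 was left out (adjusted p of 0.0746 to 0.154). Treated minus *mdx* was 0.41 ± 0.14 (adjusted p = 0.073).

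Adamtsl3, a matrix glycoprotein also called punctin-2, had signals of 5.62, 5.31 and 5.06 in C57 mice, 5.13, 5.43, 5.28 and 5.39 in *mdx* mice and 5.43, 6.04, 5.92 and 5.98 in treated mice. T1 was within the *mdx* range and the other 3 treated mice were above every other mouse. Adamtsl3 rose by 0.54 ± 0.15 against *mdx* mice (adjusted p = 0.0437) and by 0.51 ± 0.16 against C57 mice (adjusted p = 0.0403), with -0.02 ± 0.16 between *mdx* and C57 mice. The former was lost without C2, T3, T4 or any 1 *mdx* mouse (adjusted p of 0.0606 to 0.117) and the latter without C2, C3, M3, T2, T3 or T4 (adjusted p of 0.0548 to 0.17). Adamtsl1 and Adamtsl5 were not called, with differences of -0.02 ± 0.15 and -0.14 ± 0.19 in *mdx*, and Adamtsl2 was just under the minimum, with a highest group mean of 29.7.

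The ADAM genes of testis, epididymis and sperm number 20 on the array, and 1 of them, Adam4, passed the minimum. It did so through the treated mice alone, where signals were 6.16, 4.51, 5.05 and 4.71 against 4.39 to 4.98 in C57 and 4.22 to 4.61 in *mdx* mice, so that T1 set the group mean. Its difference from *mdx* mice was 0.63 ± 0.29 (adjusted p = 0.16), called only without T2 (0.82, adjusted p = 0.0472). The other 19 had linear signals of 3.7 to 25.8 in every mouse. All 8 spermatogenic cell markers were under the minimum too, with sums of 83.8 to 101.0.

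The activity of these proteases is held in check by the tissue inhibitors of metalloproteinases. Of these, TIMP-3 is the main inhibitor of ADAM17 and the aggrecanases, and RECK is a membrane-bound inhibitor of metalloproteinases including ADAM10. Timp3 had signals of 10.30, 10.40 and 10.22 in C57 mice, 9.54, 9.76, 9.76 and 9.50 in *mdx* mice and 9.89, 9.54, 9.87 and 9.84 in treated mice. It fell by 0.67 ± 0.11 in *mdx* (adjusted p = 0.00277) and was below C57 in treated mice as well (-0.52 ± 0.11, adjusted p = 0.00772). Timp4, abundant in muscle and heart, fell by 0.94 ± 0.14 in *mdx* (adjusted p = 0.00101) and differed by -1.09 ± 0.14 between treated and C57 mice (adjusted p = 0.000349). For both genes all C57 mice were above all other mice.

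Timp1, an inhibitor known to rise in injured tissue, went the other way, with signals of 5.19 to 6.00 in C57 mice, 8.61 to 10.23 in *mdx* mice and 7.02 to 8.66 in treated mice. It rose by 3.51 ± 0.41 in *mdx* (adjusted p = 0.000271) and fell by 1.54 ± 0.38 in treated against *mdx* mice (adjusted p = 0.0295), a fall that was not called without M4, T1, T3 or T4 (adjusted p of 0.067 to 0.0847). Reck rose by 0.45 ± 0.11 in treated against *mdx* mice (adjusted p = 0.0263), lost without M3, M4, T3 or T4 (adjusted p of 0.0611 to 0.0801), with -0.15 ± 0.12 between *mdx* and C57 mice. Timp2 was not called, with 0.31 ± 0.15 in *mdx* (adjusted p = 0.234).

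**Figure D4:**
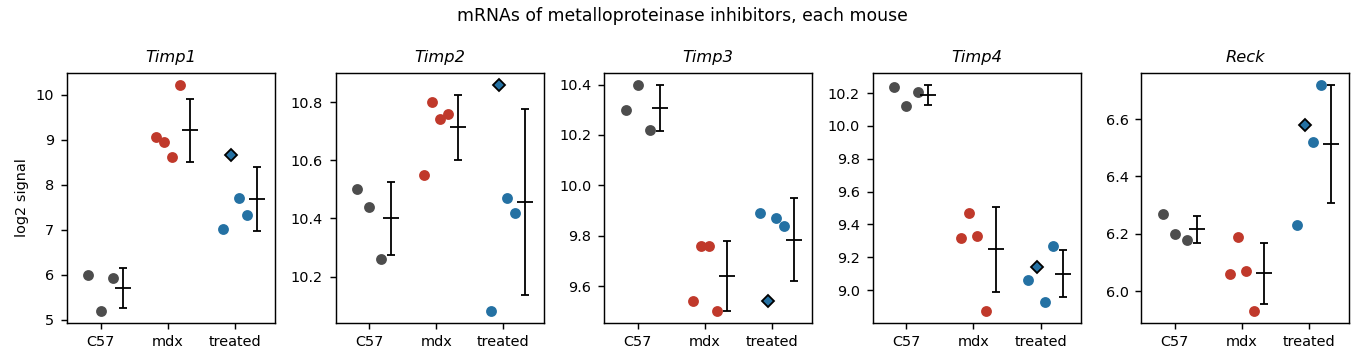
Log2 signal in each mouse for Timp1, Timp2, Timp3, Timp4 and Reck, with group mean and SD (n = 3 C57, 4 *mdx* and 4 treated mice) as a bar and T2 as a diamond. Timp3 and Timp4 are highest in all 3 C57 mice, Timp1 is lowest there and highest in M4 at 10.23, and Reck is highest in T2, T3 and T4. Each panel has its own scale.

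Of 13 genes for the maturation and transport of ADAM proteins, such as Furin and other proprotein convertases, the iRhoms that escort ADAM17 and the tetraspanins that bind ADAM10, 12 were tested. Tspan17, an ADAM10-binding tetraspanin, rose by 0.70 ± 0.15 in *mdx* (adjusted p = 0.00852), and Rhbdf2, or iRhom2, fell by 0.55 ± 0.11 (adjusted p = 0.00807). Between treated and *mdx* mice 0 of the 12 were called in limma or in the methods' t-test, and 1 was lower at an unadjusted p under 0.05 in limma. Furin differed by 0.07 ± 0.12 in *mdx*. While Adam17 mRNA was higher in treated than in C57 mice, Rhbdf2 was lower (-0.42 ± 0.11, adjusted p = 0.0211, lost without C2, C3 or T3 at 0.058 to 0.0947).

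Known substrates of ADAM proteins were tested for 27 of the 33 listed. In *mdx* mice 9 rose and none fell, where 7.06% of all probe sets were higher and 4.96% lower. At an unadjusted p under 0.05, 1 substrate was lower in limma and in the methods' t-test, which called 4 higher after adjustment. The 9 were Trem2, Cxcl16, Ncam1, Tnfrsf1b, Csf1r, Cd44, App, Cx3cl1 and Vcam1, from 2.00 ± 0.29 for the microglial and macrophage receptor Trem2 (adjusted p = 0.000925) to 0.60 ± 0.14 for the adhesion molecule Vcam1 (adjusted p = 0.0142). Csf1r, also in the macrophage list, lost its call without C3 (adjusted p = 0.0653) and Vcam1 without C2 (adjusted p = 0.0733). Ncam1 is also in the list of regenerating fibres and myoblasts.

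In treated against *mdx* mice Trem2 fell by 0.96 ± 0.26 (adjusted p = 0.039) and the chemokine Cxcl16 by 0.68 ± 0.15 (adjusted p = 0.0234), and the Notch ligand Jag1 rose by 0.30 ± 0.09 (adjusted p = 0.0456). Each of these 3 calls was lost in some fits with 1 mouse left out: Trem2 in 9, all but those without M1 and T2 (adjusted p of 0.0504 to 0.105), Cxcl16 without M3, M4, T1, T3 or T4 (0.0573 to 0.0693), and Jag1 in 9, all but those without C3 and T2 (0.0538 to 0.124). Treated mice had 13 of the 27 substrates above and 1 below C57, where 15.6% of all probe sets were above and 8.96% below, and the methods' t-test called 3 above and 0 below. Of these, Cx3cl1, Mertk, Ncam1, Notch2, Prnp, Trem2, Vcam1 and the lower gene, Igfbp5, each lost the call in at least 1 fit with a mouse left out (adjusted p of 0.0503 to 0.157).

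Among substrates and cofactors of ADAMTS proteins, 12 of 16 were tested. Col3a1 rose by 1.38 ± 0.23, the fibronectin gene Fn1 by 0.96 ± 0.15, the fibrillin gene Fbn1 by 0.74 ± 0.14 and the clearance receptor Lrp1 by 0.46 ± 0.13 in *mdx* mice (adjusted p of 0.00233, 0.00138, 0.00454 and 0.038), and the call for Lrp1 was lost without any 1 mouse other than M1, T1 and T2 (adjusted p of 0.0516 to 0.143). The versican gene Vcan, the substrate shared by the branch of Adamts1, Adamts4, Adamts5, Adamts9, Adamts15 and Adamts20, had 0.53 ± 0.18 in *mdx* (adjusted p = 0.086) and rose by 0.85 ± 0.18 in treated against C57 mice (adjusted p = 0.00742). Fbln1, whose product fibulin-1 is a cofactor of aggrecan cleavage by ADAMTS1, fell by 0.87 ± 0.23 in treated against *mdx* mice (adjusted p = 0.0339), lost without M2, M3, M4, T1, T3 or T4 (adjusted p of 0.0707 to 0.085). Aggrecan itself, Acan, was under the signal minimum.

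Promoter windows in the RefSeq table of GRCm38.p6, from 250 bases before to 50 bases after a transcription start, were found for 17 of the 28 tested members, with 19 windows in all. The windows were searched on both strands for the GC-box (GGGCGG), the CCAAT box (CCAAT), the TATA box (TATAAA) and the AP-1 site (TGACTCA). The E-box was searched likewise, in the form CAGCTG only. None of these motifs contains another. The GC-box was in 14 of 19 windows, or 73.7%, against 35.7% of all 32851 windows in the table, which also hold genes not measured in muscle. The E-box form CAGCTG was in 7 (36.8% against 16.3%) and the CCAAT box in 6 (31.6% against 37.4%). The TATA box was in 1 (5.26% against 13.6%) and the AP-1 site in 1 (5.26% against 5.2%). The median GC content was 70.0% against 52.7%. Matches are descriptions of the letters and not of bound factors.

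The windows of Adam10 and Adam17, which rose together in treated mice, and of Adam8, which fell, are shown 5′ to 3′ on the strand of the gene, with matches to the 5 motifs on either strand in capitals. They are at chr9:70678732-70679031 on the + strand for Adam10, chr12:21373583-21373882 on the - strand for Adam17 and chr7:139992513-139992812 on the - strand for Adam8.
Adam10: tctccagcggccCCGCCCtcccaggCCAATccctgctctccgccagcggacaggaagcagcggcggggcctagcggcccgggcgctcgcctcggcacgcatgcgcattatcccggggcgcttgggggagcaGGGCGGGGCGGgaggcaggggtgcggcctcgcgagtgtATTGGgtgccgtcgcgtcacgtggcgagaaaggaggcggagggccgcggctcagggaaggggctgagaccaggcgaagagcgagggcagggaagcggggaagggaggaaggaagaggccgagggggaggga
Adam17: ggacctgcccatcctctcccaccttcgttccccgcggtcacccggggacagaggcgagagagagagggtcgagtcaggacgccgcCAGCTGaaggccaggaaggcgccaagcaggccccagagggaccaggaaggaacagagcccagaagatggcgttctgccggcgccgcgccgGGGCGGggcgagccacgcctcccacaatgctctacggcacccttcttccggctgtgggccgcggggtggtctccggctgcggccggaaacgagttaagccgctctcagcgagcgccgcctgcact
Adam8: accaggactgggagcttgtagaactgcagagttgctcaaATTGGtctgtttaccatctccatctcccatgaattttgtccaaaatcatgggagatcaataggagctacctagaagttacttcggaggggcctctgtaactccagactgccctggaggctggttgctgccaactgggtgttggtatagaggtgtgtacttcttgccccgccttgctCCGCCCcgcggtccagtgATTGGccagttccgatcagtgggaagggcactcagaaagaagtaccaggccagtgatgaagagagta
The windows of Adam10 and Adam17 had GC contents of 73.3% and 70.0%, that of Adam8 had 52.3%. All 3 held a GC-box, at 3, 1 and 1 positions. Adam10 and Adam8 each held 2 CCAAT boxes, and Adam17 held CAGCTG, the form of the E-box searched. Other forms of the E-box were not marked.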

How the data were processed

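RNA from TA cryosections (100 ng) went onto Affymetrix arrays of the Mouse Gene ST 1.1 type. The authors processed the arrays in Affymetrix Expression Console with the RMA-Sketch workflow (background correction, quantile normalization against a sketch, median polish) and deposited linear intensities for 28350 probe sets. Replicates were separate mice and were not pooled. The median intensity per array was 27.5 to 28.6, and the number of arrays, 3 or 4 a group, limits the precision.

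Intensities were converted to log2. The 51.1% of probe sets whose mean reached 30 in 1 or more groups were fitted in R 4.3.3 with limma 3.58.1 (lmFit, eBayes), with 1 mean for each of 3 groups over 11 mice, and p-values were Benjamini-Hochberg adjusted over the 14494 tested. In data simulated for *mdx* minus C57 with 200 of 14494 probe sets changed, this fit recovered 90% of 2-fold and 100% of 4-fold changes, with 11 false calls. The simulated noise was normal and independent, with the same spread in every mouse, and no change under 2-fold was simulated. Many member differences are smaller, so these rates do not cover them. The methods' t-test is the equal-variance test on log2 signals between 2 groups.

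The members and lists were chosen with earlier results of these data known, so counts are set beside all probe sets and no list was tested as a set. Full values are given for members called in at least 1 comparison, and differences or ranges for the others. Of partner lists, genes called in *mdx* against C57 or in treated against *mdx* mice are named, with Timp1 to Timp4, Rhbdf2, Furin and Reck in any case. Partner genes called in treated against C57 mice are named only in part. All 56 members were found in the RefSeq gene table by Entrez identifier with the same symbol, and the array's annotation marks all 56 probe sets as unique in target. Deposited positions are not printed, as no build is named with them. Protein sequences were not analysed here. Alternatives were the methods' t-test, a 2-group fit, a trended robust prior, array weights, no signal minimum or one of 100, median centring, repeated quantile normalization, averaging the probe sets of a gene, the threshold of the study's text (unadjusted p under 0.01 and 1.5-fold), a replicate block and leaving out each mouse. Python 3.11.15 with pandas 2.3.3, NumPy 2.4.6 and matplotlib 3.10.9 was used for tables and plots.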

Additional observations from a re-analysis of the deposited data

Results flagged for a closer look

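For the 28 tested members, each group of 4 mice was examined for a mouse far from the other 3, which makes 56 groups, and 4 of them held one. Chance alone marks about 1 group in 20. Adam10 in M4 was 5.70 against 5.98 to 6.01 in the other *mdx* mice, and Adam17 in M4 was 5.46 against 6.01 to 6.10. M4 also had the lowest Dmd signal of the 11 mice, 4.60, and the highest Timp1 signal, 10.23. Adam19 in T2 was 8.19 against 7.72 to 7.76 in the other treated mice. Adamts8 in M3 was 7.79 against 6.47 to 6.61.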

How the results depend on the processing

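All 571 values of the 28 called member differences under the alternatives kept their direction; 460 stayed called and 111 did not. For members not called, 42 of 1139 values were called under an alternative and 45 had the other sign. Leaving out 1 mouse gave 5 to 11 members higher and 0 to 2 lower in *mdx* than in C57, 2 to 7 higher and 0 to 2 lower in treated than in *mdx*, and 11 to 13 higher and 0 to 1 lower in treated than in C57 mice.

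Against 9 higher and 1 lower in *mdx*, 5 and 1 in treated against *mdx*, and 12 and 0 in treated against C57 mice, counts moved by over 1.5 times as follows. The methods' t-test gave 5 and 0 in *mdx*, and 0 and 0 in treated against *mdx* mice. The 2-group fit gave 2 and 0 in treated against *mdx* mice. Array weights gave 14 and 2 in *mdx*, 9 and 4 in treated against *mdx* mice, and 1 lower than C57. Without the signal minimum no member was lower in *mdx* or in treated against *mdx* mice (0 in each). With a minimum of 100, which left 13 members, 3 were higher in *mdx*, 2 higher and 0 lower in treated against *mdx*, and 5 higher in treated against C57 mice. Median centring, repeated quantile normalization and the mean of probe sets each made 1 member lower in treated than in C57 mice, namely Adam11. The threshold of the study's text, applied here to limma's p-values, gave 5 and 0 in *mdx* and 3 higher in treated against *mdx* mice. The study gives this threshold with a t-test, for *mdx* muscle. The cause was not tested.

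Replicate numbers did not pair the mice, since the deviations of same-numbered mice correlated at -0.297 to 0.153. With the replicate number as a block, 5 were higher and 0 lower in *mdx*, 2 higher and 0 lower in treated against *mdx*, and 11 higher in treated against C57 mice. The mean of probe sets takes in, for Adamts8 and Adam15, a probe set on the opposite strand. Over the 58 tested partner genes the counts ranged from 8 to 24 higher (15 as reported) and 2 to 5 lower (3) in *mdx*, from 0 to 3 higher (2) and 0 to 14 lower (4) in treated against *mdx*, and from 4 to 25 higher (20) and 1 to 10 lower (5) in treated against C57 mice.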
